A study of Mus musculus with 12 samples.

Results

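Haematopoietic stem cells of mice that had received granulocyte colony-stimulating factor (G-CSF) for 2 days were compared with those of sham-operated mice across all genes of an expression array. The arrays of both groups were taken by their labels, 3 for 2 days of G-CSF and 3 for sham, which makes 6 of the 12 arrays in the series. Each array came from 1 male mouse. Marrow was enriched for cells bearing Kit, and lineage-negative cells positive for Sca-1 and Kit (LSK) within the SLAM gate were then sorted by flow cytometry. In the first group G-CSF was injected at 100 ug/kg every 12 h, 4 times over 2 days. The sham mice are labelled only as operated, and no injection is given for them, nor any operation for the G-CSF mice. G-CSF, injection and surgery therefore cannot be told apart in this comparison. The other 6 arrays, used for the spread and for side-by-side values, are 3 mice given the same injections for 5 days (9 doses) and 3 mice infused with POL5551, which blocks the chemokine receptor CXCR4, at 100 mg/kg per day for 14 days. The labels used here give neither strain nor age.

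G-CSF is the cytokine that drives the production of neutrophils, and it moves stem cells out of the marrow into the blood. Its receptor, encoded by Csf3r, has no kinase of its own and signals through JAK kinases to STAT3 and STAT5. These factors switch on feedback inhibitors, of which SOCS3 is the one that binds the G-CSF receptor. Much of the action of G-CSF on stem cells in the marrow passes through other cells, such as monocytes and macrophages and the stromal cells that make CXCL12.

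In all, 11 of 33191 genes passed the threshold between 2 days of G-CSF and sham (limma, adjusted p under 0.05), which is 0.0331% of the genes tested. Of these, 10 rose (0.0301%) and 1 fell (0.00301%). The genes that rose and have a symbol were Cd53, Borcs5, Wfdc17, Socs3, Gadd45g and Olfr729, and the other 4 were transcripts or probes without one. With the mouse number as a block 6 genes passed, all higher, of which 5 were among the 11. They were Cd53, Borcs5, Wfdc17, Socs3 and the probe A_55_P2539528, and the sixth was Cldn1. The deposited value table numbers 3 POL5551 and 2 5-day arrays otherwise, and with its numbers as the block 4 genes passed, of which Cd53, Borcs5 and A_55_P2539528 were among the 11. An unadjusted p under 0.05 was found for 3027 genes. Leaving out 2-day mouse 1, 2 or 3 gave 2, 5 or 3 calls, and there were 4 without sham 2, 7 without 5-day mouse 1 and 166 without sham 1.

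**Figure D1:**
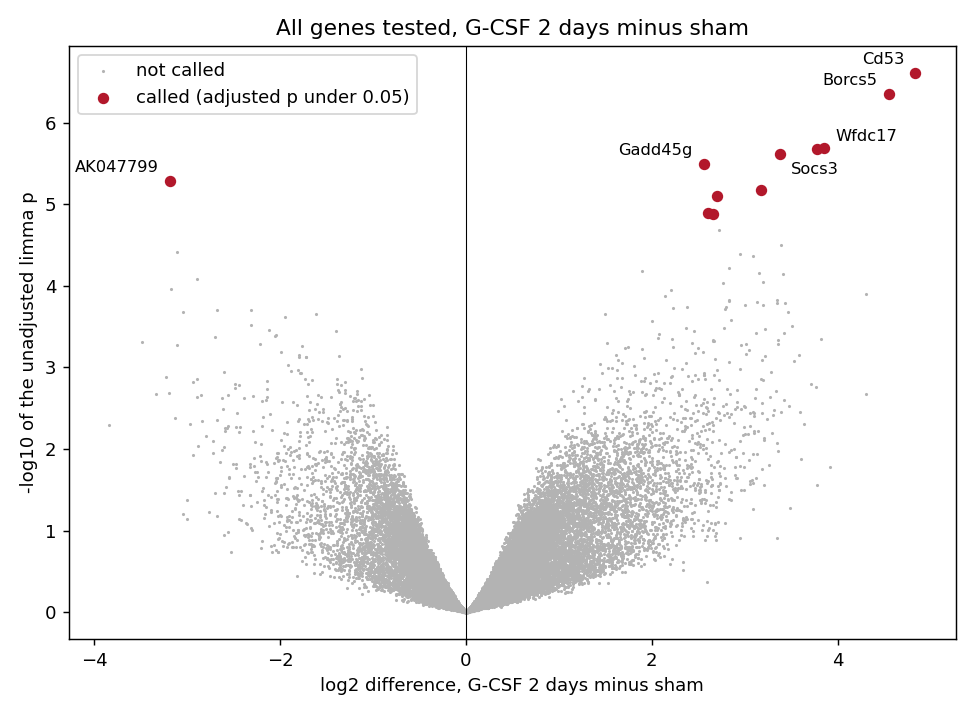
Each point is 1 gene, with the log2 difference of G-CSF 2 days minus sham on the x axis and the -log10 of the unadjusted limma p on the y axis. The 11 genes called are drawn in red, 10 to the right and AK047799 alone to the left.

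Promoter sequences are shown for 4 of the genes that rose, because STAT factors are the route from the G-CSF receptor to the genome. They are RefSeq sequences on GRCm38.p6, 5' to 3' on the strand of the gene, and run from upstream of the annotated start to just past it. Socs3 is at chr11:117969317-117969616 on the reverse strand, Gadd45g at chr13:51846425-51846724 on the forward strand, Wfdc17 at chr11:83703806-83704105 on the forward strand and Cd53 at chr3:106790100-106790399 on the reverse strand. Capitals mark each match to the STAT motif TTCNNNGAA, which reads the same on both strands.
Socs3: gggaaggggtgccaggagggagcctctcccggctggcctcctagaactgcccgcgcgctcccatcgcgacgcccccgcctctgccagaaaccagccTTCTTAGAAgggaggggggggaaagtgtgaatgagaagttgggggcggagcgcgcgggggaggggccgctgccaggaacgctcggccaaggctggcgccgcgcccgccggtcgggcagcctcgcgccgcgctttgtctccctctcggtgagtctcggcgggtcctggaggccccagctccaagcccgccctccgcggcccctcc
Gadd45g: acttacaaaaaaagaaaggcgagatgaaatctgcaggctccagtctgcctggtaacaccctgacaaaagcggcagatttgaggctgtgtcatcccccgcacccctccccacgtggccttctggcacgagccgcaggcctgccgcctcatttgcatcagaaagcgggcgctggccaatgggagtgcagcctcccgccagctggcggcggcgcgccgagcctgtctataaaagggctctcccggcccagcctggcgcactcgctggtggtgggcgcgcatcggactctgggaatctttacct
Wfdc17: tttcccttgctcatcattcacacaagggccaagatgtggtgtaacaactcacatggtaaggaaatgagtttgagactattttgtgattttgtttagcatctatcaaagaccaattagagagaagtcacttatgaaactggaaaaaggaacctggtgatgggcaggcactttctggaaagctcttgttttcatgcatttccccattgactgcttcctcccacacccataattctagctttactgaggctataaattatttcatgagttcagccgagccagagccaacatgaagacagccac
Cd53: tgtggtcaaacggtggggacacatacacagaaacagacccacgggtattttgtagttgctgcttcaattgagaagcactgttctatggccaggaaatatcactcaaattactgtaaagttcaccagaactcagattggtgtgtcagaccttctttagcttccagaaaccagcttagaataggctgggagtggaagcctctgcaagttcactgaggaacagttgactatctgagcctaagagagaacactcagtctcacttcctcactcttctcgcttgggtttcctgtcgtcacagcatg
The motif was found once in the Socs3 promoter, beginning 154 bases before the start, and not in the other 3 printed here nor in those of Borcs5, with 2 starts, and Olfr729. Of all 32851 promoters in the table, 8.30% hold the motif. The stricter form TTCCNGGAA, which is contained in it, was in none of the 7 promoters of called genes and in 1.15% of all promoters.

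All values below are log2 signal relative to the 75th percentile of the array, so that 0 is the level of that percentile, and differences are those of G-CSF 2 days minus sham with the limma standard error. SD is over 3 mice. The arrays of both groups gave 77.6% to 82.4% of probes well above background. Precision is limited by there being 3 arrays a group. Sham 1 stood apart from the other arrays of its group. Its rank correlation across genes with shams 2 and 3 was 0.788 and 0.783, while these had 0.936 with each other and the 2-day arrays had 0.951 to 0.962 among themselves. Off-tissue genes are here those without use in blood cells, of smell, taste and vomeronasal receptors and of keratin-associated proteins. The median level of their 1542 probes was -2.40, -2.73 and -2.60 on the 2-day arrays, against -1.60, -3.30 and -3.45 on shams 1 to 3. The 2-day arrays therefore lay below sham 1 and above shams 2 and 3. All 3 of them were hybridised on 1 slide that held no other group, and the shams on 2 other slides, so slide and group cannot be told apart. The labels name separate mice, but do not say whether the mice shared a litter or cage. Results that rest on sham 1 are given with and without it.

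**Figure D2:**
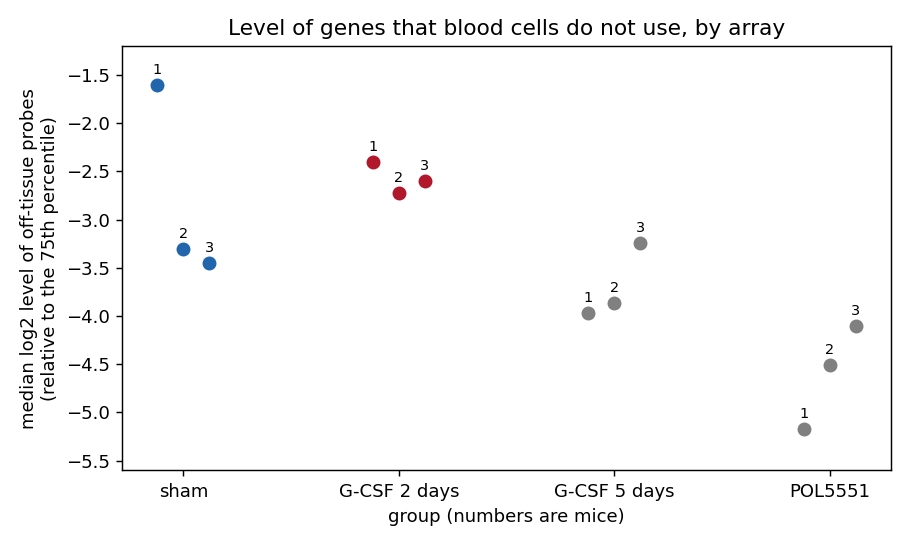
The median log2 level of off-tissue probes, relative to the 75th percentile of the array, is plotted for each of the 12 arrays by group, and the small numbers name the mice. The 2-day arrays sit between -2.73 and -2.40, with sham 1 above them at -1.60 and the other shams below at -3.30 and -3.45.

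Socs3 and Gadd45g, an inhibitor of cytokine signalling and a growth arrest gene, rose after 2 days of G-CSF. Socs3 encodes the SOCS protein that binds the G-CSF receptor and blocks its kinases, and its probe lies on chromosome 11 (mm9, 117827480 to 117827539). Its level was 2.88, 3.40 and 3.18 on the 2-day arrays and -1.0, 0.23 and 0.07 in sham. The groups lay far apart, and sham 1 was the lowest array. The difference was 3.38 (SE 0.387, adjusted p = 0.0162), or 10.4-fold, and 3.00 without sham 1 (adjusted p = 0.0111).

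Gadd45g, which is induced by stress and cytokines and acts on cell cycle arrest, was at 1.16, 1.58 and 1.62 after 2 days of G-CSF (chromosome 13, mm9 51943733 to 51943792). In sham it was at -0.93, -1.21 and -1.17, so that the shams agreed closely. The difference was 2.56 (SE 0.301, adjusted p = 0.0177), a 5.89-fold rise, and 2.64 without sham 1. With the mouse number as a block the adjusted p was 0.0903.

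Wfdc17 is a WAP-domain gene of myeloid cells whose small product is secreted. It was at 1.37, 1.57 and 1.56 on the 2-day arrays, against -1.83, -1.73 and -3.28 in sham (chromosome 11, mm9 83518443 to 83519627). The 2-day mice differed by little, while sham 3 was lower than the other shams. The rise was 3.78 (SE 0.426, adjusted p = 0.0162), or 13.8-fold, and 4.01 without sham 1.

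Cd53, a tetraspanin of leukocyte membranes, had the smallest p. Its probe on chromosome 3 (mm9 106565046 to 106566140) was at -0.87, -0.70 and -0.09 after 2 days of G-CSF. In sham it was at -6.01, -5.56 and -4.61, and it cleared background on 1 of the 3 sham arrays. The measured difference was 4.84 (SE 0.442, adjusted p = 0.00738), and 4.53 without sham 1. No fold is given, since 2 of the 3 sham values are below background.

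Borcs5 encodes a subunit of BORC, the complex that moves lysosomes along microtubules. It was at -2.35, -0.84 and -1.82 on the 2-day arrays, against -5.79, -6.67 and -6.19 in sham, below detection on each array (chromosome 6, mm9 134660740 to 134660799). Here and below, "at least" compares the brighter group's mean with the detection floor of the dimmer group, the mean over its arrays of the dimmest signal called above background. Such a bound holds for the main background correction only and carries no sampling error. Borcs5 rose at least 7.25-fold (adjusted p = 0.00738), and its measured difference was 4.55 (SE 0.44). Cd53 and Borcs5 passed when any 1 of the 12 arrays was left out. With normexp background correction and quantile normalization Borcs5 had a difference of 1.89 and did not pass (adjusted p = 0.158). That difference is below the bound given above, which is 2.86 on the log2 scale.

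The other called genes were less stable when an array was left out. Wfdc17 and Socs3 lost the threshold without any 1 of the 2-day mice, with adjusted p of 0.084 to 0.106 for Wfdc17 and 0.084 to 0.118 for Socs3. Gadd45g lost it without 2-day mouse 1, 2 or 3 or sham 2 or 3 (adjusted p of 0.066 to 0.126). With the 6 arrays of both groups alone limma called no gene, with 2096 at an unadjusted p under 0.05, and the adjusted p of these 5 genes was 0.251.

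**Figure D3:**
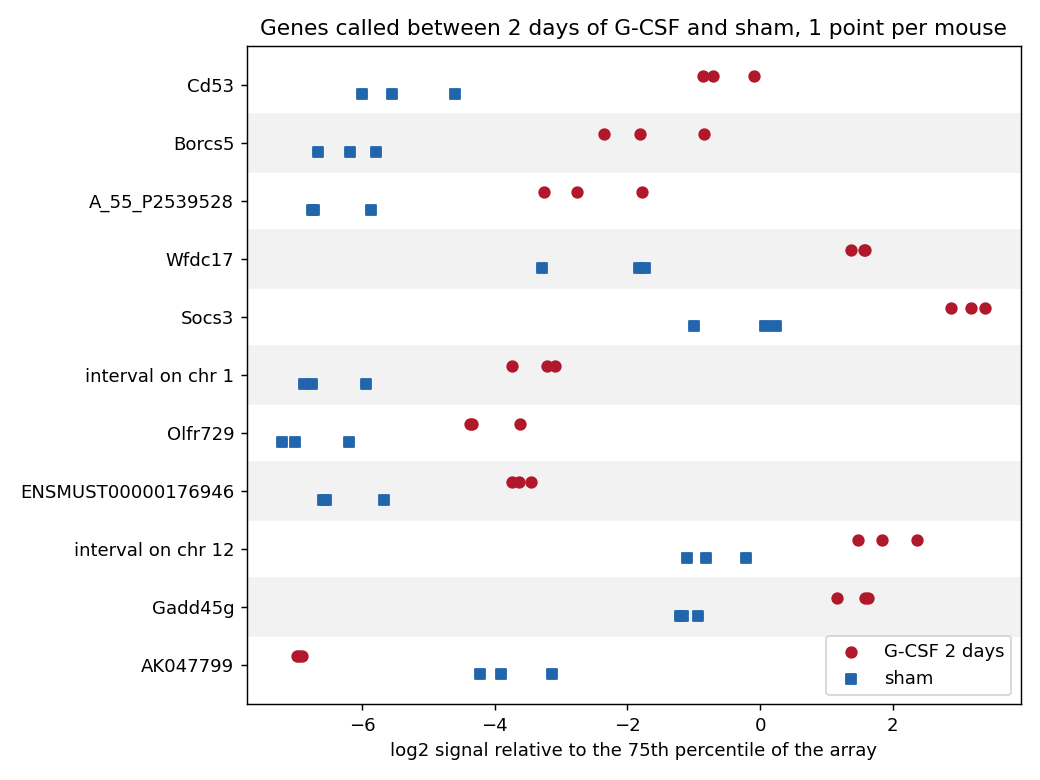
The log2 level of each called gene, relative to the 75th percentile of the array, is plotted on the x axis with 1 point per mouse, red circles for G-CSF 2 days above blue squares for sham. In 10 rows the red points lie to the right of the blue ones, and in AK047799 they lie to the left.

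The remaining genes that rose were dim on the sham arrays, with 1 exception. The probe A_55_P2539528, which the array design leaves without a gene (chromosome 3, mm9 101318058 to 101318117), was at -1.78, -3.27 and -2.76 on the 2-day arrays and at -5.87, -6.72 and -6.76 in sham. It rose at least 3.80-fold (adjusted p = 0.0162), and it was above background on no sham array. Olfr729, an olfactory receptor and off-tissue gene on chromosome 14, rose at least 1.34-fold (adjusted p = 0.0292). Its levels were -3.62, -4.37 and -4.34 after 2 days and -6.21, -7.01 and -7.21 in sham. Apart from the 2-day arrays, only 1 5-day array had it well above background. Olfr729 thus met the filter for testing only through the 2-day arrays, where it was high. ENSMUST00000176946, a transcript on chromosome 6, rose at least 1.89-fold (adjusted p = 0.0402), with -3.63, -3.46 and -3.74 on the 2-day arrays against -5.67, -6.58 and -6.54 in sham. The off-tissue median differed between the arrays as given above, and with it as a covariate all 11 genes were among 20 that passed.

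Probes that the array design names by an interval rose at 2 places. Their sequences are printed as the identity of features to which the design gives no gene symbol. They are 60 bases long, read from the array files, 5' to 3', with no bases marked. The interval chr1:69566918-69567447 lies on the reverse strand of mm9 and its probe at 69567077 to 69567136. The interval chr12:110842154-110883594 lies on the forward strand and its probe at 110865304 to 110865363.
Interval on chromosome 1: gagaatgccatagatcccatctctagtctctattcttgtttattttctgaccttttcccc
Interval on chromosome 12: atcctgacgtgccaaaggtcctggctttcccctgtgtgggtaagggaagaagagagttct
The interval on chromosome 1 was at -3.22, -3.10 and -3.75 after 2 days of G-CSF and at -5.94, -6.76 and -6.87 in sham. It rose at least 2.26-fold (adjusted p = 0.0279), and it too was above background on no sham array. The interval on chromosome 12 was well above background on all 6 arrays, at 1.48, 1.83 and 2.37 on the 2-day arrays and -0.82, -0.21 and -1.10 in sham. It rose by 2.60 (SE 0.354, adjusted p = 0.0402), 6.08-fold. A second probe of it, at -1.80, -0.85 and -0.71 on the 2-day arrays and -6.21, -1.86 and -2.12 in sham, had a difference of 2.28 (SE 0.907). A probe of the noncoding gene Rian, at 110865343 to 110872442 on the same strand, begins within the called probe and lies inside the interval. The interval lies in the imprinted Dlk1-Meg3 region, where the noncoding gene Meg3 was at 2.30, 2.58 and 2.46 on the 2-day arrays against 0.16, 0.75 and 0.42 in sham (difference 2.0, adjusted p = 0.186), a gene chosen for its place after its values were seen. Its other probes had differences of 2.60, 1.98, 0.89 and 0.07.

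AK047799, a cDNA clone on chromosome 2 (mm9 172251362 to 172251421), was the gene that fell. It was at -6.91, -6.98 and -6.95 after 2 days of G-CSF, where no array had it well above background. In sham it was at -4.22, -3.13 and -3.91, with 2 of the 3 arrays well above background. It was at least 1.85-fold lower (adjusted p = 0.0244). Apart from the shams, only 1 5-day array had it well above background. AK047799 thus met the filter for testing only through the sham arrays, where it was high.
Olfr729, ENSMUST00000176946, AK047799 and both intervals lost the threshold with the mouse number as a block, with adjusted p of 0.104 to 0.111. Leaving out 1 array at a time, which lost them in 5 to 10 of the 12 fits, gave adjusted p of up to 0.263 in those fits. The probe A_55_P2539528 lost it in 4 of the 12, with adjusted p of up to 0.101. With normexp and quantile normalization the differences of Olfr729, ENSMUST00000176946, the interval on chromosome 1, A_55_P2539528 and AK047799 were 0.59, 0.98, 0.93, 1.27 and -1.25, and none passed (adjusted p of 0.184 to 0.405). These 5 did not pass with a trended and robust prior either (adjusted p of 0.174 to 0.418). Their standard errors were then 0.70 to 0.76, against 0.35 to 0.43 in the main fit. AK047799 also missed the threshold with quantile normalization (adjusted p = 0.0502) and in the same fit of the authors' deposited values (0.104). ENSMUST00000176946 missed it with quantile normalization (0.0868) and with the 75th percentile of bright probes (0.0703). With every probe tested on its own, ENSMUST00000176946 and the interval on chromosome 12 missed it (0.0523 each).

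Without sham 1 all 11 genes still passed, and 166 genes did in all, 138 higher and 28 lower, or 0.500% of those tested. With only the 5 arrays left in both groups 144 passed, and Wfdc17, A_55_P2539528 and the interval on chromosome 12 were not among them. Of the 138, 11.6% were off-tissue genes, 55.8% had no symbol and 27.5% were well above background on no sham array. Over all genes tested these shares were 3.51%, 43.8% and 1.92%. Some of the blood genes among those added were Csf2rb2, a beta subunit of the IL-3 receptor in mice (1.57, adjusted p = 0.0457), and Cdkn1c, the cell cycle inhibitor p57, which was lower (-2.26, adjusted p = 0.0218). Others were Ebi3, a subunit of IL-27 and IL-35 (-2.80, adjusted p = 0.0116), the G1 cyclin Ccnd2 (-1.59, adjusted p = 0.0426) and the platelet glycoprotein Gp9 (-1.88, adjusted p = 0.0218). The last 2 had differences of -0.24 and 0.44 with all 12 arrays. Ccnd2 and Gp9 were chosen after their values were seen. The genes named are not a full list of blood genes, and most of the 166 were higher. Also added were Csf3 (4.32, adjusted p = 0.0311), Cxcr3 (4.68, adjusted p = 0.0489) and Ltb (-1.94, adjusted p = 0.0417), likewise chosen after their values were seen.

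The same genes can be set beside the 5-day and POL5551 groups. In limma no gene passed between 2 and 5 days of G-CSF (0.00% of 33191), while 5370 had an unadjusted p under 0.05. Leaving out sham 1 gave 14 calls, sham 3 gave 3 and 5-day mouse 3 gave 4. Socs3 averaged 3.15 ± 0.26 at 2 days and 3.14 ± 0.30 at 5 days (SD, n = 3 each), a difference of 0.01 (SE 0.387). Gadd45g averaged 1.45 ± 0.26 and 1.36 ± 0.44 at these times, Wfdc17 1.5 ± 0.12 and 2.15 ± 0.32, and Borcs5 -1.67 ± 0.77 and -2.04 ± 0.43. Cd53 averaged -0.56 ± 0.41 at 2 days and 1.67 ± 0.49 at 5 days, and the difference of -2.22 did not pass (adjusted p = 0.25). ENSMUST00000176946 averaged -3.61 ± 0.14 at 2 days and -6.30 ± 0.55 at 5 days, and no 5-day array had it well above background (adjusted p = 0.0733). It was tested only because the 2-day arrays met the filter.

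Between 2 days of G-CSF and POL5551, 10161 genes passed (30.6% of those tested), 8212 of them higher after G-CSF (24.7%), and the median difference of all genes was 0.65. The off-tissue median averaged -2.58 ± 0.16 after 2 days of G-CSF and -4.60 ± 0.54 after POL5551 (SD, n = 3 each), and its part in this count was not tested. It was 102, 5146 and 1819 without 2-day mouse 1, 2 and 3, 209 and 5983 without POL5551 mouse 1 and 2, and 17450 without sham 1. Wfdc17 was at 1.37 to 1.57 after G-CSF and -1.43 to -0.68 after POL5551, 2.66 higher (adjusted p = 0.0116). Socs3 was at 2.88 to 3.40 after G-CSF and 1.22 to 2.06 after POL5551, 1.55 higher (adjusted p = 0.0204), and Gadd45g was 1.03 higher (adjusted p = 0.0303). Cd53 and Borcs5 differed between these groups by -0.33 (adjusted p = 0.548) and 0.40 (adjusted p = 0.456). The interval on chromosome 12 was 2.03 higher after G-CSF than after POL5551 (adjusted p = 0.0128).

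**Figure D4:**
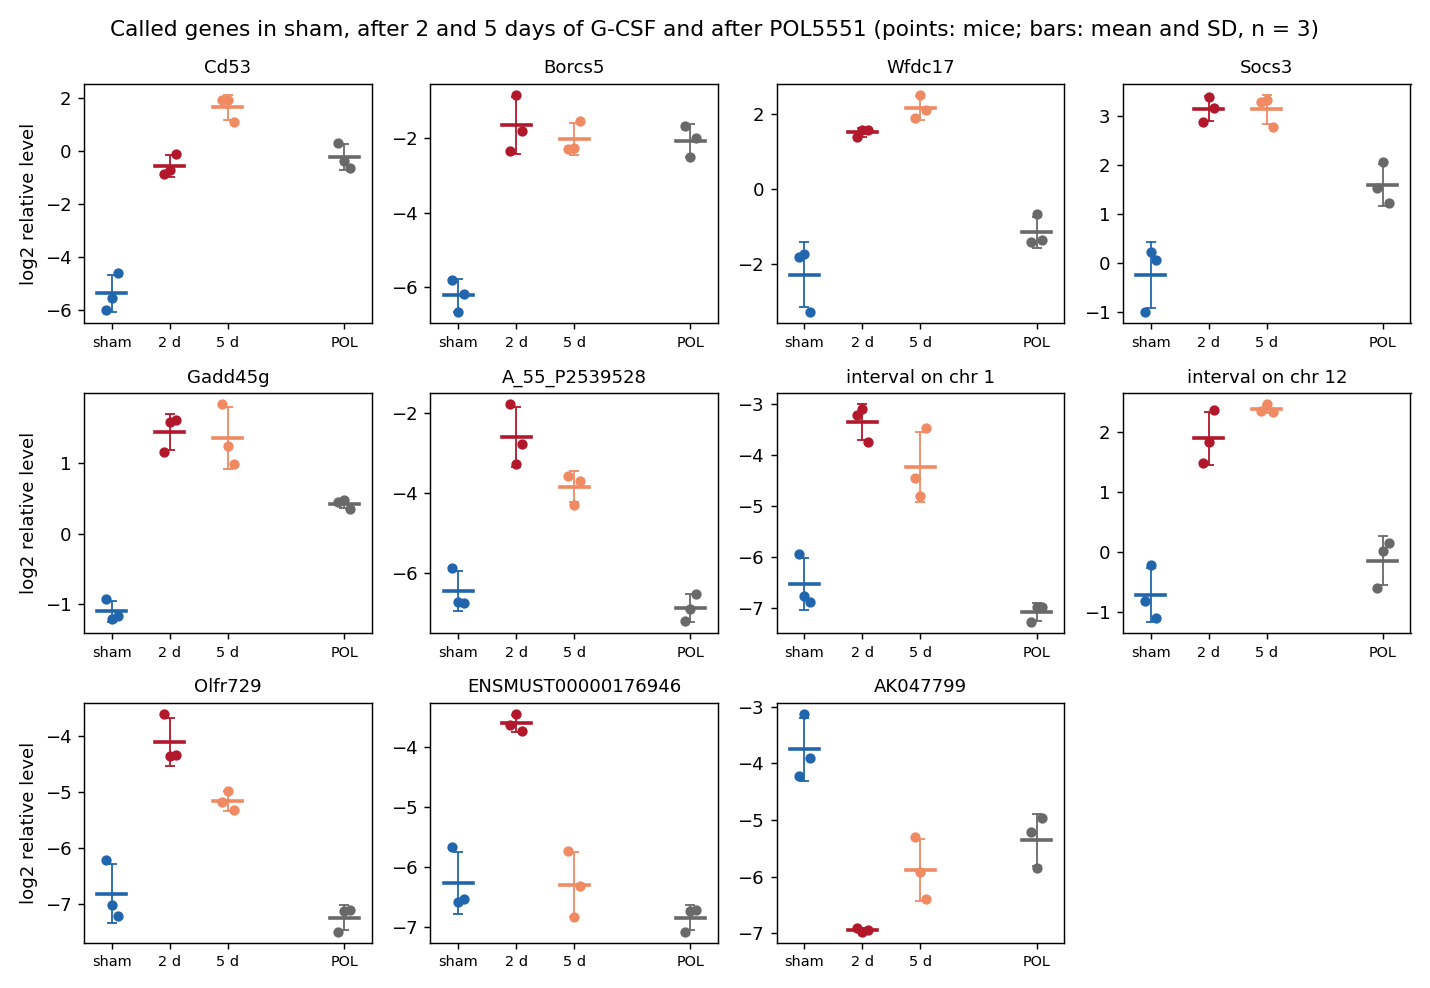
The log2 level of each called gene, relative to the 75th percentile of the array, is plotted for sham, 2 and 5 days of G-CSF and POL5551, with points for mice and bars for the mean and SD (n = 3). Socs3 and Gadd45g have like means at both times, while ENSMUST00000176946 is well above background on the 2-day arrays and on no other array. ENSMUST00000176946 met the filter for testing through the 2-day arrays alone.

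Genes just outside the threshold are given here where they have a symbol. Muc1, a membrane mucin, was at 0.69, -0.41 and -0.12 on the 2-day arrays and -3.12, -2.59 and -2.30 in sham (difference 2.72, SE 0.389, adjusted p = 0.0571). Tgfbi, a matrix protein induced by TGF-beta, was at 1.61, 2.03 and 2.17 after G-CSF and -0.64, -0.21 and 0.03 in sham (2.21, adjusted p = 0.148). Dlk1, an imprinted Notch-family ligand, was at 2.00, 2.68 and 2.14 after G-CSF and -2.0, -1.45 and -0.14 in sham (3.47, SE 0.644, adjusted p = 0.162). The groups did not overlap for any of the 3, nor for Csf2rb2, at 1.07 to 1.59 after G-CSF and -0.48 to 0.06 in sham (1.5, adjusted p = 0.163). Abca4, a retinoid transporter, had 2.83 (adjusted p = 0.161). The others of the 10 smallest p above the threshold, among genes with a symbol whose groups did not overlap, cleared background on no sham array. Slc1a7, Cltrn, Cldn1, Rcvrn and V1ra8 were at least 1.60-fold to 3.59-fold higher, with adjusted p of 0.0796 to 0.161. V1ra8 and Slc1a7 met the filter for testing only through the 2-day arrays, where they were high.

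On the lower side, by the same rule, Angpt1 was well above background on all 6 arrays. It encodes angiopoietin 1, the ligand of the Tie2 receptor that stem cells bear, and was at 2.23, 2.69 and 2.37 on the 2-day arrays and 4.52, 3.76 and 3.85 in sham (-1.61, SE 0.302, adjusted p = 0.163). Ebi3 was at -2.26, -2.51 and -2.39 after G-CSF and -1.05, 0.68 and 0.14 in sham (-2.31, adjusted p = 0.162). Idh1, cytosolic isocitrate dehydrogenase, had -2.05 and Odr4 -1.40, with adjusted p of 0.223 and 0.214. The other 6 had no 2-day array well above background and were at least 1.94-fold to 3.24-fold lower, with adjusted p of 0.129 to 0.228. They were Olfr1499, Amigo2, Lgr4, Plcz1, Strn and Gsdmc3. Among them Olfr1499, Plcz1 and Gsdmc3 met the filter for testing only through the sham arrays, where they were high. None of the genes named in this paragraph passed.

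Gene lists of pathways were read by their counts and medians, beside the median of all genes, 0.10 (0.21 without sham 1). Across the 22 lists 637 genes were tested and 5 passed, all higher, namely Socs3, Gadd45g, Cd53, Borcs5 and Wfdc17. The lists were chosen with these calls known, some of them around a called gene, so nothing is read from that count against the 0.0331% of all genes. The groups did not overlap for 6.63% of all genes in the higher direction and 5.35% in the lower, among the 32985 with no missing value. Of the 22 lists, 8 had a median above that of all genes, and 4 without sham 1.

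The list of the G-CSF receptor, JAK and STAT genes with feedback held 32 genes. Socs3 rose, the other 31 did not pass, and the median was 0.25 (-0.04 without sham 1). Csf3r, the receptor itself, was at 5.84, 5.75 and 5.60 on the 2-day arrays and 6.86, 5.89 and 5.52 in sham (-0.36, SE 0.347), and 0.03 without sham 1. Pim1, a survival kinase induced by STAT factors, was at 3.72, 3.93 and 3.87 after G-CSF and 1.99, 3.30 and 3.63 in sham (0.87, adjusted p = 0.539, and 0.38 without sham 1). Stat3 had 0.58 (0.13 without sham 1), with sham 1 at 2.45 and the other 5 arrays at 3.72 to 4.15. Cish, an inhibitor induced by STAT5, had -1.02 (-1.81 without sham 1) and Cebpb, a factor of emergency granulopoiesis, -1.19 (adjusted p = 0.529), with Cebpb lower on all 2-day arrays than in any sham. In the SOCS and PIM list of 11, which shares members, Pim2 had 1.55 (0.65 without sham 1) and Socs6 -0.50, and only Socs3 passed.

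Of 29 growth arrest and immediate stress genes Gadd45g rose and no other passed (median -0.12, -0.04 without sham 1). Dusp1, a phosphatase of early response, was at 0.37, 1.25 and 0.53 on the 2-day arrays and 2.36, 2.27 and 1.36 in sham (-1.28, adjusted p = 0.447). The early transcription factor Klf6 had -1.17 and the nuclear receptor Nr4a3 2.06, with adjusted p of 0.464 and 0.469. Nr4a3 was highest in mouse 1 and lowest in mouse 2 within each group (4.70, 2.58 and 4.29 after G-CSF and 3.06, 0.41 and 1.93 in sham).

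None of 26 quiescence and CDK inhibitor genes passed, and 8 had all 2-day arrays below all shams, as 5.35% of all genes did. The list was chosen with earlier results known, so nothing is read from that count. The list's median was -0.33 (-0.38 without sham 1), and 8 members had a positive difference. Cdkn1c was at -0.29, -0.73 and -0.12 after G-CSF and 0.43, 1.84 and 1.92 in sham (-1.78, SE 0.412, adjusted p = 0.313). Tob1, an antiproliferative gene, had -1.80 (adjusted p = 0.384) and was well above background on 2 of the 3 arrays after G-CSF. Cdkn1a, which encodes p21, had 0.53 and Cdkn2d 0.38. The quiescence genes are inhibitors of the cell cycle, and the lists of cycling cells were also read. Of 45 S phase genes none passed (median 0.18, -0.27 without sham 1), with Clspn at 1.22 (0.60 without sham 1) and Mcm6, a subunit of the replicative helicase, at -0.45. Of 42 G2/M genes none passed (median 0.29, 0.36 without sham 1). Mki67, the proliferation marker, was at 0.47, 1.21 and 0.64 after G-CSF and 0.70, 0.23 and 0.54 in sham (0.28, SE 0.4).

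The markers of the sort did not pass. Kit was at 2.61, 2.79 and 2.93 on the 2-day arrays and 2.88, 3.22 and 3.02 in sham (-0.27, SE 0.26). Ly6a, which encodes Sca-1, was at -0.20, 0.37 and 0.37 after G-CSF and -1.84, 0.91 and 0.77 in sham, so that the 2-day arrays lay between sham 1 and the others (0.23, and -0.66 without sham 1). Slamf1, the SLAM marker CD150, had 0.30 (-0.67 without sham 1) and Procr, of stem cells, -0.24 (-0.82). Cd48, which the usual SLAM gate excludes, had 0.41, Cd34 0.67 and Flt3 0.33, and these were 0.69, 0.12 and 0.56 without sham 1. Kit, Ly6a, Procr and Cd48 were well above background on all 6 arrays, and Slamf1 on 5. Of 40 stem cell identity genes none passed (median -0.18, -0.54 without sham 1). Msi2, an RNA-binding protein of stem cells, was at 2.15, 2.45 and 2.27 after G-CSF and 3.64, 3.20 and 3.40 in sham (-1.12, SE 0.265, adjusted p = 0.315). Fli1, an ETS factor, had -1.19 (adjusted p = 0.419), and its groups did not overlap either.

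Among 41 genes of marrow retention and adhesion none passed (median -0.07, -0.36 without sham 1). Cxcr4, the receptor of CXCL12, was at 1.73, 2.55 and 1.96 on the 2-day arrays and 1.36, 3.79 and 3.47 in sham (-0.80, SE 0.541, and -1.56 without sham 1, adjusted p = 0.0581). Selp, P-selectin, was at 1.46, 1.72 and 2.03 after G-CSF and 0.45, 0.56 and -0.12 in sham (1.44, adjusted p = 0.285). The integrin gene Itga9 had -1.68. Cxcl12 was at -1.48 and -1.38 on 2 of the 2-day arrays and at 2.34 on the third, against -0.48, -0.75 and -1.54 in sham, so its difference of 0.75 rests on 1 array. Without 2-day mouse 3 it was -0.51. Of 27 cytokine receptor genes none passed (median 0.04, 0.22 without sham 1), with Csf2ra, the alpha chain of the GM-CSF receptor, at -0.72 (adjusted p = 0.478) and Il1rap, the accessory chain of the IL-1 receptor, at -1.41 (adjusted p = 0.43). In the tetraspanin list of 18 Cd53 rose, and Cd37 had 0.95 and Cd81 -0.47 (-1.01 without sham 1). In the lysosome list of 30 Borcs5 rose, while the BORC subunit gene Borcs8 had -0.66 and Arl8a, the GTPase that BORC recruits, -0.93 (adjusted p = 0.508 and 0.55). In the list of 25 WAP domain and acute phase genes Wfdc17 rose, Il1rn, the IL-1 receptor antagonist, had 1.90 (adjusted p = 0.483), and Slpi, another WAP protein, -0.48.

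Myeloid fate factors gave no call in 25 genes (median -0.13, -0.45 without sham 1). Cebpa was at 0.19, -0.41 and -0.42 after G-CSF and -0.34, -1.07 and -1.55 in sham (0.77, adjusted p = 0.653), Spi1, which encodes PU.1, had 0.92 with all arrays but 0.0044 without sham 1, and Gfi1 0.07. Gata1, a factor of erythroid and megakaryocytic cells, was 1.11 (adjusted p = 0.44) and Mycn -1.02 (adjusted p = 0.436). Both had groups that did not overlap. Toll-like receptor genes gave no call in 37 (median 0.15, -0.10 without sham 1), with Tlr4 at 0.51 and Tlr2 at -0.41 (0.93 and -0.67 without sham 1).

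Interferon lists gave no call with all arrays. Without sham 1 the gene Cd74 passed (the invariant chain of MHC class II), at -2.09 (adjusted p = 0.0489). Of 39 type I interferon genes 6 had all 2-day arrays below all shams and none above, with a median of -0.24 (-0.68 without sham 1). Over all genes 5.35% lay below all shams and 6.63% above. Ifit1 had -1.51 (adjusted p = 0.451). Of 29 interferon gamma and antigen presentation genes 6 also lay below all shams, with a median of -0.13 (-0.64 without sham 1). H2-Aa, an MHC class II chain, was at -0.61, -0.20 and 0.39 after G-CSF and 0.61, 2.18 and 1.92 in sham (-1.71, SE 0.508, adjusted p = 0.415). H2-D1 and Psmb8 had 0.85 and 0.71, with -0.50 and -0.77 without sham 1.

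Lists of growth and metabolism had lower medians without sham 1. Of 34 MYC and ribosome biogenesis genes none passed (median -0.16, -0.62 without sham 1), and of 45 respiratory chain genes none (median -0.22, -0.64 without sham 1). In the respiratory chain list 9 members had a positive difference with all arrays and 1 without sham 1. Myc itself was at 2.75, 3.29 and 3.48 after G-CSF and 2.86, 3.86 and 3.78 in sham (-0.33, SE 0.37, and -0.65 without sham 1). Ndufs7, of complex I, was at 3.44 to 3.77 on the 2-day arrays and 1.46, 4.00 and 4.27 in sham (0.38, and -0.51 without sham 1). Of 32 glycolysis and hypoxia genes none passed (median 0.07, -0.35 without sham 1), with the glycolytic enzyme Pkm at 1.12 (0.70 without sham 1) and Egln1, the oxygen sensor of the HIF pathway, at -1.0 (adjusted p = 0.429). The unfolded protein (30 genes), p53 (31) and BCL2 (18) lists gave no call, with medians of -0.12, 0.05 and 0.27 (-0.39, -0.043 and 0.28 without sham 1). Chac1, a stress gene that degrades glutathione, was not well above background in sham and at least 2.09-fold higher (adjusted p = 0.37).

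**Figure D5:**
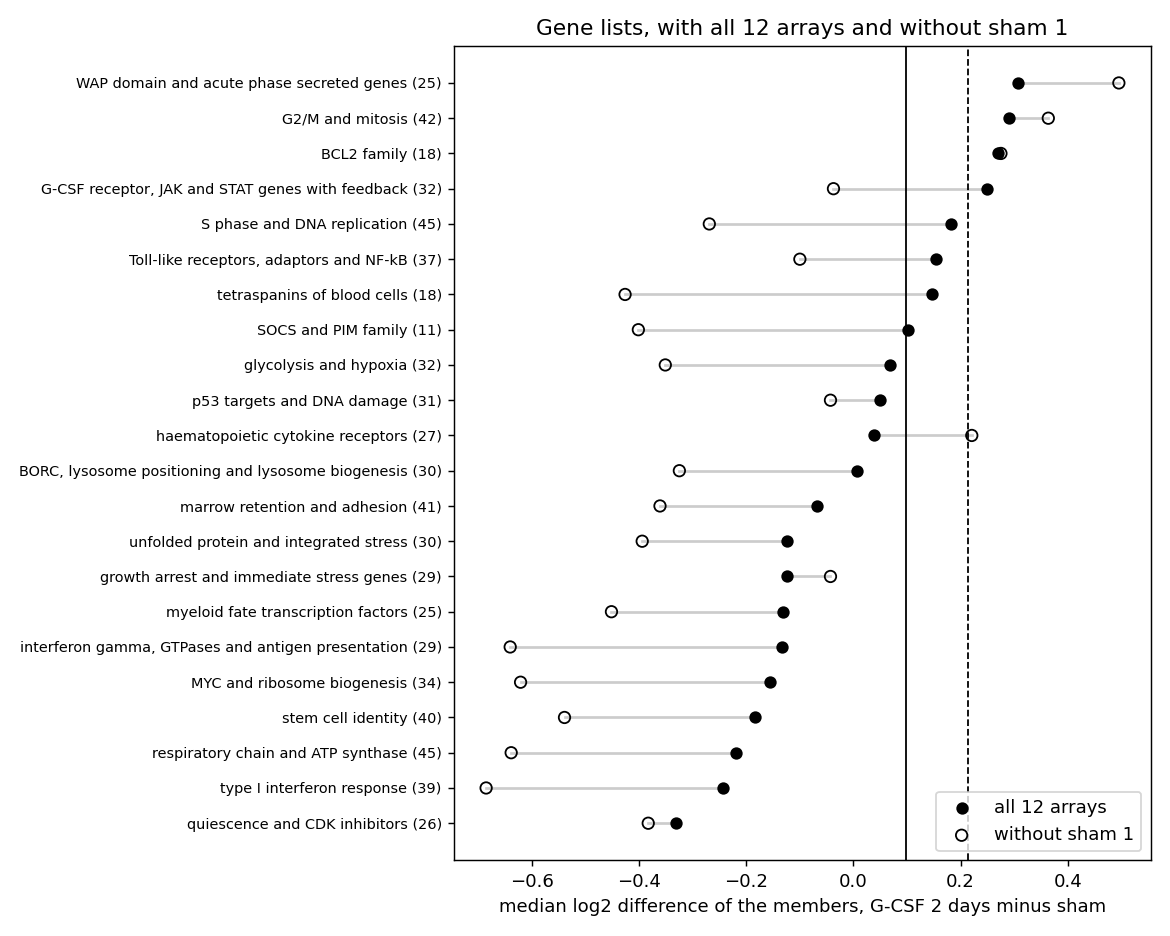
The median log2 difference of each gene list, G-CSF 2 days minus sham, is plotted with all 12 arrays (filled) and without sham 1 (open), and the number of genes tested is in brackets. The solid and the dashed line mark the median of all genes in the same fits, 0.10 and 0.21, and most open points lie left of their filled ones.

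No gene of the 11 marker lists of other cells passed. Without sham 1 the basophil protease gene Mcpt8 did, with 4.83 (adjusted p = 0.0426), and Gp9 and Cd74 did in the lower direction. The summed level of 11 primary granule markers, on the log2 scale, was 3.85 to 4.18 on the 2-day arrays and 2.59 to 4.17 in sham. That of 17 monocyte and macrophage markers was 5.19 to 5.40 after G-CSF and 5.05 to 5.52 in sham, with 13 members positive. For 19 mature neutrophil markers it was 7.04 to 7.70 after G-CSF and 6.94 to 8.14 in sham, and for 17 erythroid markers 6.38 to 6.68 and 5.77 to 7.09. The stromal and osteoblast list of 23 had the highest median of all marker lists, 0.74 (1.14 without sham 1), and a sum of 4.51 to 5.80 after G-CSF and 4.65 to 5.47 in sham. For comparison, the 1164 off-tissue genes tested had a median of 0.25 (0.81 without sham 1). The T and NK list of 19 was the only marker list with no overlap of sums, 6.02 to 7.06 after G-CSF and 4.56 to 5.81 in sham. Only 1 of its 19 members had all 2-day arrays above all shams, as 6.63% of all genes did. The list's median was 0.35 (0.54 without sham 1). The sums add linear signal, so bright members weigh most. Fcnb, Nes, Dcn and Gp1ba, markers of neutrophils, stroma and platelets, had differences of 2.11 to 2.42 without passing, while the lowest in their lists were -0.86 for neutrophils, -1.61 for stroma and -2.47 for platelets. Fcnb was at -6.98 in sham 3 and at -0.45 or above on the other 5 arrays, and Dcn was higher in sham 1, at 0.45, than on any 2-day array. These 4 markers were chosen after their values were seen. The part of other cells in the results was not tested, and fewer cells of a type and less RNA per cell cannot be told apart.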

How the data were processed

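Gene expression was measured on 12 single-colour arrays (Cy5, Agilent), 1 for each male mouse, 3 in each of 4 groups (G-CSF 2 days, G-CSF 5 days, POL5551 and sham). Per the file headers, the deposited scanner files hold the intensity of each spot on a linear scale from Agilent Feature Extraction 11.5.1.1, with background subtracted, spatial trends removed and no normalization between arrays. The authors' deposited value table, also intensity on a linear scale, was used as an alternative only, and how it was made is not given in the sources used here. Coordinates are mm9, as in the files.

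From each log2 processed intensity the array's 75th percentile over non-control probes was subtracted, with outlier spots left out and repeated spots averaged. Only probes well above background on 3 or more of 12 arrays were tested, and each gene was represented by its brightest probe. Testing used limma 3.58.1 under R 4.3.3, with group means over all 12 arrays (8 residual and 3.23 prior degrees of freedom), two-sided moderated tests and Benjamini-Hochberg adjustment over 33191 genes at 0.05. An exact test of 3 against 3 arrays cannot go below 0.1. Probes were named by RefSeq accession (32989), symbol (10228) or synonym (519), and 12869 were not matched. The procedure was tested on simulated data.

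The comparison, the gene lists and the rule for named genes were chosen with earlier results of these data known. The rule named all called genes, 24 fixed genes, the 10 smallest p per direction above the threshold among genes with a symbol, detected throughout 1 group or both, whose groups did not overlap, and for each list the called members and the 2 highest and 2 lowest differences. Mouse numbers are those of the labels of the scanner files, which give no litter or day. Columns of the deposited value table match them for 2-day and sham arrays, but 3 POL5551 and 2 5-day columns match scanner files of another number. Deviations from the group means of same-numbered 2-day and sham arrays had correlations of 0.248, 0.221 and 0.154, against -0.176 to 0.00739 for other pairs. For each gene the 3 deviations of a group cancel out, so positive values for same-numbered pairs partly force the lower ones of other pairs. This contrast is no test of pairing, and a fit with the number as a block stands beside the results it changes. Promoters (GRCm38.p6) and probe sequences were searched or read by program. Results for some genes are not reported here.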

Additional observations from a re-analysis of the deposited data

How the results depend on the processing

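Every called gene kept its sign in all settings in which it was tested. For G-CSF 2 days minus sham the count of 11 became 5 with normexp background correction and quantile normalization, 5 with probes above background on all 12 arrays, 0 with the 6 arrays of both groups alone (2096 at an unadjusted p under 0.05, limma), 7 with a trended and robust prior and 837 with array weights. With the mouse number as a replicate block it was 6 (4 with the numbers of the value table, an alternative chosen after seeing the data, with 3403 at an unadjusted p under 0.05), and adjusting for the off-tissue median as covariate gave 20. Leaving out 1 array at a time gave 2 to 166 genes, the highest without sham 1. A fit of the 5 arrays left in both groups without sham 1, chosen after seeing the data, gave 144. The share of higher calls was 90.9%, 78.5% with array weights and 80.0% with the covariate, and under other scalings it ran from 83.3% to 100%. With quantile normalization, median scaling, the percentile of bright probes, the authors' table, no filter, a filter by group, every probe on its own and slide as a random block it was 9 to 12. The slide block gave the same 11 genes, but it cannot separate slide from group, since the 2-day arrays had a slide to themselves.

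G-CSF 2 days minus 5 days had 0 called genes (5370 at an unadjusted p under 0.05, limma), 3 with quantile normalization and 0 to 14 when 1 array was left out. The mouse number as a block and the authors' table left it at 0. G-CSF 2 days minus POL5551 had 10161, against 5900 with quantile normalization, 6073 with the authors' table, 8450 with the mouse number as a block and 102 to 17450 when 1 array was left out. For this comparison 80.8% of calls were higher, against 69.4% with quantile normalization and 69.5% with the authors' table, and the median of all genes, 0.65, became 0.25 with either.

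Signs turned for genes that had not passed. Leaving out 1 array at a time gave ranges, of which the first 13 had their low end without sham 1. They were -0.66 to 0.71 for Ly6a, -0.67 to 0.90 for Slamf1, -0.40 to 0.54 for Gfi1, -0.065 to 1.17 for Cd27, -0.38 to 2.53 for Hoxb5, -0.44 to 2.13 for Rpa2, -0.77 to 1.49 for Psmb8, -0.50 to 1.55 for H2-D1, -0.98 to 1.89 for Ppan, -0.0029 to 1.84 for Ddx21, -0.51 to 0.89 for Ndufs7, -0.50 to 1.79 for Ndufv1 and -0.16 to 1.52 for Xpc. Csf3r ran from -0.64 to 0.026 and Slpi from -0.85 to 0.13, with the high end without sham 1. Cxcl12 ran from -0.51 (without 2-day mouse 3) to 1.41, Vcam1 from -1.17 to 0.40 (without 2-day mouse 2), Procr from -0.82 to 0.081 and Orm2 from -0.85 to 0.12 (both without 2-day mouse 1), and Bcl2l11 from -0.069 to 0.11. Array weights gave -0.51 for Ly6a, -0.63 for Slamf1, -0.50 for Gfi1, -0.035 for Hoxb5, -0.24 for Rpa2, -0.42 for Psmb8, -0.17 for H2-D1, -0.77 for Ppan, -0.31 for Ndufs7, -0.28 for Ndufv1, -0.14 for Xpc and 0.056 for Slpi. Msi2 was 0.20 with normexp. Bcl2l11 was -0.015 with quantile normalization, -0.035 with median scaling, -0.078 with normexp, -0.021 with the authors' table and -0.019 with the covariate. The cause of these changes was not tested. Signal over background limits the dim genes, whose folds are bounds, under the main background correction only, where a group had no array above background.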

Other observations

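The probes around the called interval on chromosome 12 moved one way. Within 140 kb on either side of its probe, a window chosen after the values were seen, 33 probes were tested and all 33 had a positive difference, while 57.0% of all genes did. In 16 of them the 2-day arrays lay above all shams, as in 6.63% of all genes. Both shares of all genes count each gene by its brightest probe. The window counts single probes and includes the called one. The highest difference was that of a Rian probe, a noncoding RNA of the locus, at 0.02, 0.34 and 1.05 on the 2-day arrays and -3.44, -3.49 and -5.73 in sham (4.69, SE 0.64). This Rian probe overlaps the called probe in position. The other Rian probe, which stands for the gene, had 1.61, and Mirg, the host of a microRNA cluster, 1.21. Probes of a locus share transcripts and arrays, so they are no replicates.

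When every probe was tested on its own, a probe of Soat1, the enzyme that esterifies cholesterol, was at -1.10, -0.87 and -0.74 after G-CSF and -6.08, -6.91 and -6.28 in sham, where it was above background on no array (at least 12.3-fold higher, adjusted p = 0.00777). A probe of Btbd3 was above background on no 2-day array and at least 2.13-fold lower (adjusted p = 0.0338). The brighter probes that stood for Soat1 and Btbd3 had 0.94 and 0.92 (adjusted p = 0.605 and 0.586), so for Btbd3 the probes differed in sign.

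A group of 4 genes had a like pattern over the mice, noticed in the values. Tpx2, a mitotic spindle gene, was at 5.07, 2.62 and 4.33 on the 2-day arrays of mice 1, 2 and 3 and at 3.20, 0.50 and 2.37 on the sham arrays with these numbers. Il1rn, Nr4a3 and the IL-5 receptor gene Il5ra were also lowest in mouse 2 and highest in mouse 1 of both groups. The share of all genes with this order was not counted. Same-numbered arrays are separate mice, so no pairing is read from it.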
